A study of Homo sapiens with 8 samples.

Results

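Genes that make cholesterol and unsaturated fatty acids were followed across 8 arrays of 4 lung cancer cell lines. The 30 genes were taken by name from a list, and they are 30 of the 22439 genes that could be named on the array. They fall into a sterol branch of 18 enzymes, 4 regulators and carriers, and a fatty acid branch of 8 enzymes. Probes were found by RefSeq accession. A gene's value is the log2 ratio of treated over control, averaged over its probes that were well above background in at least 1 of the colours.

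Each array held RNA of treated cells in Cy5 (red) and RNA of control cells of the same line in Cy3 (green). In the *miR-150-3p* group, lung squamous cell carcinoma (LUSQ) cells were transfected with this miRNA, with 1 array of EBC-1 and 1 of SK-MES-1 cells. In the siDONSON group, SBC-3 small cell lung cancer cells received siDONSON-1, siDONSON-2 or siDONSON-3, siRNAs against the replication fork gene *DONSON*. In the *LOXL2* editing group, A549 lung adenocarcinoma cells had *LOXL2*, the gene of a lysyl oxidase that crosslinks collagen, reduced by genome editing with CRISPR/Cas9. There were 3 arrays, A549-GE1, A549-GE2 and A549-GE3, against unedited A549 cells, and the labels do not say whether these are clones, pools or repeats. The control of the transfections is labelled both mock and not transfected, so an effect of the transfection itself and of the RNA that was transfected cannot be told apart. Dyes were never swapped, so a dye effect of a probe and a change that all treatments share cannot be told apart either. The spread within a group is that between 2 cell lines for *miR-150-3p* and between 3 siRNAs for siDONSON. For the *LOXL2* arrays nothing says that they came from separate cultures, so their spread may be technical.

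Cholesterol is built from acetyl-CoA through mevalonate, isoprenoids, squalene and lanosterol. Fatty acid synthesis starts from the same acetyl-CoA, and desaturases and elongases then shape the chain. Both branches are under the SREBP transcription factors, which are held in the endoplasmic reticulum by INSIG proteins while sterols are plentiful and are cut free for the nucleus when sterols fall. SREBP-2, from *SREBF2*, mainly serves the sterol branch, and SREBP-1c, from *SREBF1*, mainly the fatty acid branch. SREBPs act together with NF-Y, which binds CCAAT, and Sp1, which binds GGGCGG.

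Promoters of the members were searched for the sterol regulatory element core TCACNCCAC, for CCAAT and for GGGCGG on both strands, from 250 bases before to 50 bases after each start site. RefSeq promoters (GRCh38.p14) matched 26 of the 30 members by symbol. CCAAT was present at 21 of the 26 genes (80.8%), against 42.1% of the 12793 genes that were tested on the arrays and had an entry. GGGCGG was present at 25 of the 26 genes (96.2%), against 70.9%. The sterol element core was present at 1 gene (3.85%), *SREBF2*, against 1.42%. Genes with several start sites count if any of them holds the motif. Per promoter, CCAAT was in 25 of 36 (69.4%) and GGGCGG in 32 of 36 (88.9%) of the members' promoters, against 34.3% and 61.7% of the 18161 promoters of the genes tested on the arrays, and the core was in 2.78% against 1.06%. Over all 35116 promoters of the table, which include genes not tested, these shares were 34.6%, 45.0% and 1.13%. Such matches are letters in a window, and other forms of the sterol element were not searched.

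The promoters below belong to *SREBF2*, which holds the core, and to some of the members that passed a test in 1 of the groups. Other members that passed, such as *FADS1*, *ACSS2*, *MVK* and *MVD*, are not printed. For a gene with several start sites, the promoter with most matches of the 3 motifs is printed. Capitals mark matches to any of the 3 motifs on either strand, so that ATTGG is CCAAT and CCGCCC is GGGCGG on the other strand. No match of a motif shares bases with a match of another motif, while neighbouring GGGCGG matches can share bases.
SREBF2 (chr22:41832855-41833154, plus strand): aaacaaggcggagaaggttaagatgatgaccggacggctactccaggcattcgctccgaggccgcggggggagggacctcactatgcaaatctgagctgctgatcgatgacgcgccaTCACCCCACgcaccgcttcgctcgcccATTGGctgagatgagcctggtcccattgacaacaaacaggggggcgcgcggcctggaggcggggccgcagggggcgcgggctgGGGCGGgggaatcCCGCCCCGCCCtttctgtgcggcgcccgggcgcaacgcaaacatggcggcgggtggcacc
INSIG1 (chr7:155297628-155297927, plus strand): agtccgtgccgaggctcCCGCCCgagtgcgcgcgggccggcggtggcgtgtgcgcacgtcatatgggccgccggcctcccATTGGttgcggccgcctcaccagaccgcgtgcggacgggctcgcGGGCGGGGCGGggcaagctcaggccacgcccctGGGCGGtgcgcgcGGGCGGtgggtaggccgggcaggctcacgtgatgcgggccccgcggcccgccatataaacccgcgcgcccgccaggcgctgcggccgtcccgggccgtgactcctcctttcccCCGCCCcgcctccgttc
HMGCS1 (chr5:43313363-43313662, minus strand): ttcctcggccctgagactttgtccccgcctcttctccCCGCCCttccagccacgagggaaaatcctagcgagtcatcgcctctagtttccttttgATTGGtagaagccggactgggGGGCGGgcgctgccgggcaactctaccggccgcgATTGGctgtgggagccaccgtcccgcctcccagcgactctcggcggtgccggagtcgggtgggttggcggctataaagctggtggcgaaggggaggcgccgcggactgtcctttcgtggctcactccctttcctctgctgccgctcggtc
LSS (chr21:46228725-46229024, minus strand): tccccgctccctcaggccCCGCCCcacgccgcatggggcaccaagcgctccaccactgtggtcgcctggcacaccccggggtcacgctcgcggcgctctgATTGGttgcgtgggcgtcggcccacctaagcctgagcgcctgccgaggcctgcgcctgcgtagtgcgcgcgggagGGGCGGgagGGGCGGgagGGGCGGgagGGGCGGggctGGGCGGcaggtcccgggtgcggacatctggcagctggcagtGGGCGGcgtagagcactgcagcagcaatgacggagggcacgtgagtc
SCD (chr10:100346983-100347282, plus strand): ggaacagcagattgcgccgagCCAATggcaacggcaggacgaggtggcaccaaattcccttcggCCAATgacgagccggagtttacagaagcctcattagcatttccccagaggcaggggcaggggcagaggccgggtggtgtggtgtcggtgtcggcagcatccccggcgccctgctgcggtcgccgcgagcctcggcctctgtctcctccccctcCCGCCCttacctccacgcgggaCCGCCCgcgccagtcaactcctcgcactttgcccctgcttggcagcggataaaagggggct
FADS2 (chr11:61816154-61816453, plus strand): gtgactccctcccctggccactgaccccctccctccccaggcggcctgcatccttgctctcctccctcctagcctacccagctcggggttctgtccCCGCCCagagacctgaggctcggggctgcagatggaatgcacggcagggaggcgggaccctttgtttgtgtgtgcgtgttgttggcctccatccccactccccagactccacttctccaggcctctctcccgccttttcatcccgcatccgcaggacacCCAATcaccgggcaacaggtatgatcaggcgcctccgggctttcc

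The printed promoters differed in how many matches they held. For *HMGCS1* and *FADS2*, which had 2 promoters each, the counts are those of the promoter with most matches. The 2 *FADS2* promoters together held 1 CCAAT and 1 GGGCGG match. The *LSS* promoter held 7 GGGCGG matches and 1 CCAAT match, and that of *INSIG1* 6 and 1. The *SCD* and *HMGCS1* promoters each held 2 of either kind. The *FADS2* promoter held 1 of either kind, with its CCAAT just after the start site.

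The targeted genes checked the labels. *DONSON* was at -2.15, -1.79 and -2.11 on the siDONSON-1, siDONSON-2 and siDONSON-3 arrays, and *LOXL2* was at -2.49, -2.67 and -2.59 on the A549-GE1, A549-GE2 and A549-GE3 arrays. Both were far below 0 on every array of their own group. Between 14759 and 16178 named genes had a value per array. The labelled cell types were checked in the control channel by markers. Among 6 squamous markers, *KRT5*, *KRT6A* and *DSG3* were not well above background in either LUSQ line, and *TP63* was so in SK-MES-1 but not in EBC-1. *KRT14* was above background in SK-MES-1 and not in EBC-1, and *SOX2* was in both. *TP63* and *SOX2* were above background on 3 of 3 SBC-3 arrays too, at a log2 level against the array's 75th percentile of -1.73 and 5.87, above -2.90 and -1.73 in SK-MES-1 and -3.59 and -0.63 in EBC-1. In SBC-3, *NEUROD1*, *SYP* and *CHGA* were above background on 3 of 3 arrays, while *INSM1* was on 0 of 3. In A549, *NAPSA*, *KRT7* and *KRT18* were above background on 3 of 3 arrays, and *NKX2-1* and *SFTPB* on 0 of 3. *NAPSA*, *KRT7* and *KRT18* were above background in both LUSQ lines as well, with *KRT7* at 9.16 in EBC-1 and 9.03 in A549, and *CHGA* was on 3 of 3 A549 arrays. *NEUROD1* and *SYP* were above background in SBC-3 only. By level, *KRT7* and *KRT18* were lower in SBC-3, at 2.22 and -0.02, than in SK-MES-1, at 7.80 and 5.55. Both were higher still in EBC-1 and A549. No squamous or adenocarcinoma marker was above background in both LUSQ lines and not in A549, or the reverse.

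**Figure D1:**
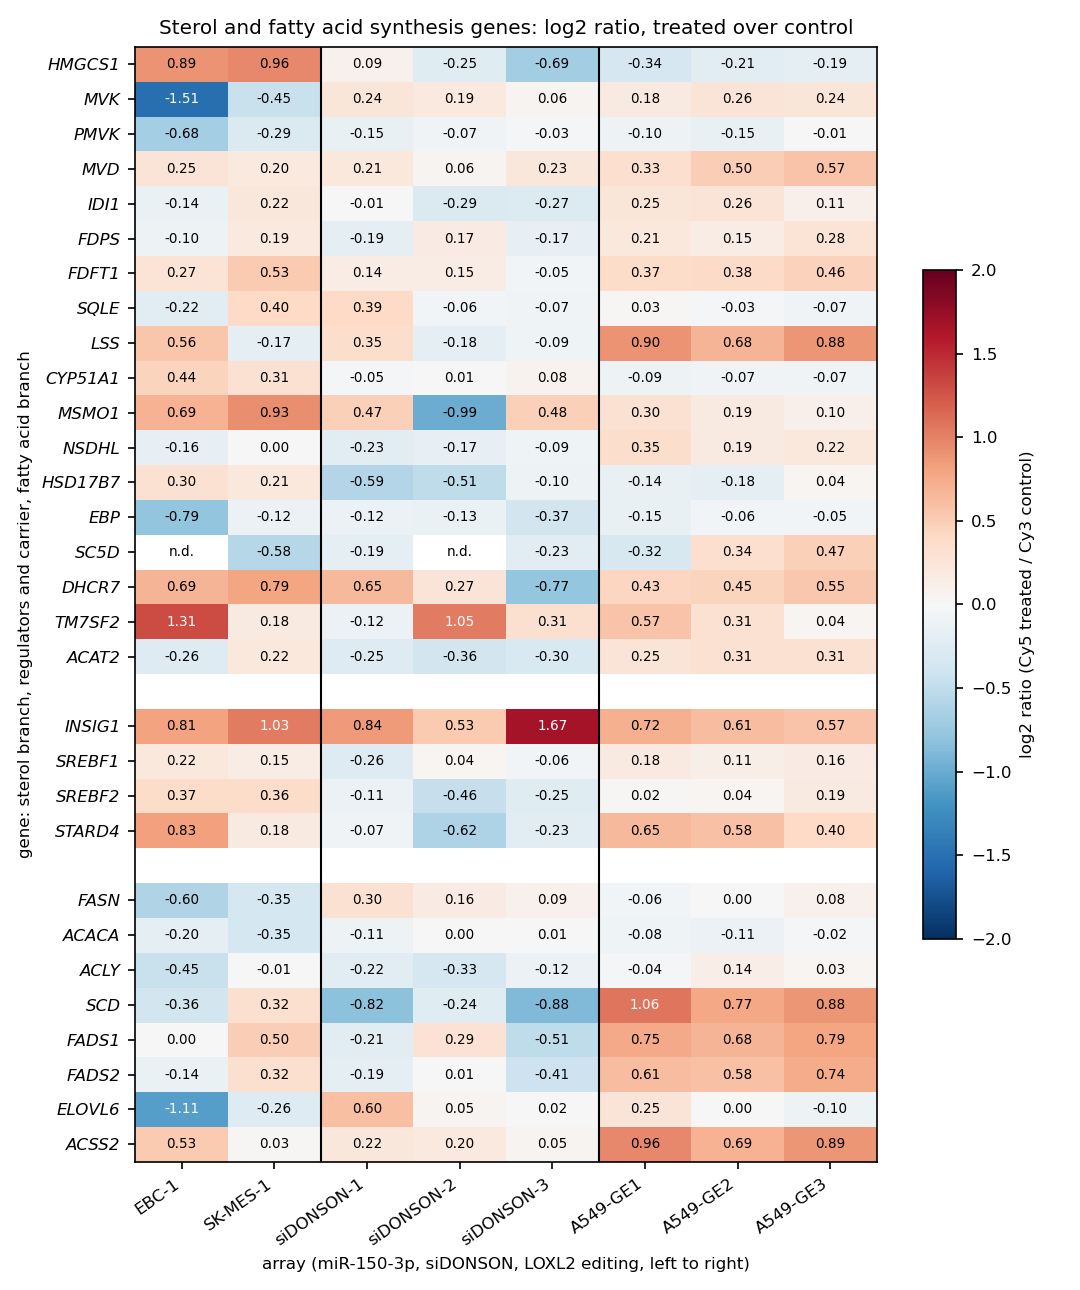
Log2 ratio of treated over control for each of the 30 genes (rows, by branch) on each of the 8 arrays (columns, by group), with the value printed in each cell; n.d. marks a probe not well above background in either colour. *INSIG1* is above 0 on every array, *SCD*, *FADS1*, *FADS2*, *LSS* and *ACSS2* are high on the 3 A549 arrays, and *HMGCS1* is high only on the 2 *miR-150-3p* arrays.

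All members had a value on every array except *SC5D*, the lathosterol desaturase, which was dim and measured on 6 of 8 arrays, so that 29 members were tested in the *miR-150-3p* and siDONSON groups and 30 in the *LOXL2* group. Each group's mean was tested against 0 with limma, with Benjamini-Hochberg adjustment over all genes tested and a threshold of 0.05. The arrays measured bulk RNA of whole cultures, so fewer cells with a transcript and less of it per cell cannot be told apart. In the *LOXL2* group, 7 of 30 members were higher and 0 were lower, where 7.58% of all genes were higher and 6.77% lower. In the *miR-150-3p* group, 1 of 29 was higher and 1 lower, where 2.47% and 2.90% of all genes were. In the siDONSON group, 1 of 29 was higher and 0 were lower, where 4.01% and 3.21% of all genes were. With each array centred on its median, the siDONSON group had 444 genes higher and 536 lower in place of 580 and 464. At an unadjusted p under 0.05, 11 members were above and 0 below 0 in the *LOXL2* group, 9 above and 6 below in the *miR-150-3p* group, and 1 above and 4 below in the siDONSON group. Of all genes, 17.1% were above and 13.9% below at this p in the *LOXL2* group, 15.1% and 14.9% in the *miR-150-3p* group, and 15.1% and 11.0% in the siDONSON group.

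The medians of the branches are given per array as a description. On the 3 A549 arrays, the median of the fatty acid branch was 0.43, 0.36 and 0.41, and that of the sterol branch 0.23, 0.22 and 0.16, with all genes at 0.02 to 0.03. On EBC-1 the fatty acid branch had a median of -0.28 and the sterol branch of 0.25. On SK-MES-1 these medians were 0.01 and 0.20. The siDONSON arrays had sterol medians of -0.03, -0.07 and -0.09 and fatty acid medians of -0.15, 0.03 and -0.05, where all genes had medians of 0.03 to 0.05. Taken over the group means, the sterol median was 0.21 in the *LOXL2* group and 0.19 in the *miR-150-3p* group, with 0.02 and 0.04 for all genes. The fatty acid median was 0.35 in the *LOXL2* group and -0.13 in the *miR-150-3p* group.

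**Figure D2:**
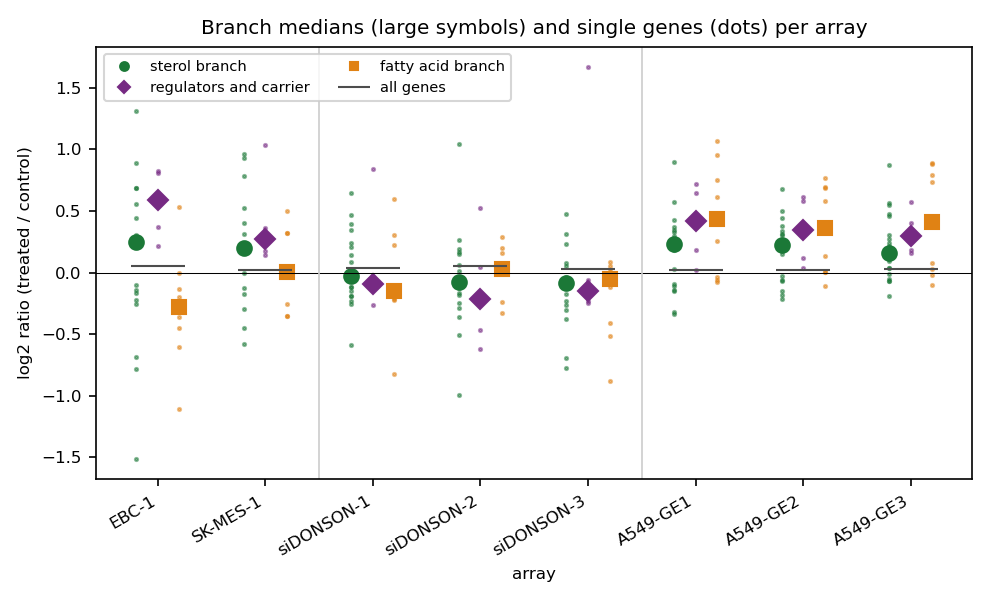
Log2 ratio of treated over control per array, with a large symbol for the median of each branch, dots for single genes and a bar for the median of all genes on that array. The fatty acid branch lies at 0.36 to 0.43 on the 3 A549 arrays and at -0.28 on EBC-1.

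In A549 cells with edited *LOXL2*, 4 members of the fatty acid branch (*SCD*, *FADS1*, *FADS2* and *ACSS2*) and 3 of the sterol branch (*LSS*, *MVD* and *FDFT1*) were higher. *SCD*, which puts the first double bond into saturated fatty acids, was at 1.06, 0.77 and 0.88 on A549-GE1, A549-GE2 and A549-GE3. All 3 values lay beyond the 95% limits of the scanner software's error, which describes technical noise on an array. The mean of 0.91 (95% confidence interval 0.51 to 1.30, n = 3, limma adjusted p = 0.0142) is a 1.87-fold higher level.

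*ACSS2*, which turns acetate into acetyl-CoA, was at 0.96, 0.69 and 0.89, with a mean of 0.85 (0.58 to 1.12, limma adjusted p = 0.0053), or 1.80-fold. *FADS1*, the delta-5 desaturase of polyunsaturated fatty acids, was at 0.75, 0.68 and 0.79, with a mean of 0.74 (0.37 to 1.11, limma adjusted p = 0.0225). *FADS2*, the delta-6 desaturase next to it in the genome, was at 0.61, 0.58 and 0.74, with a mean of 0.65 (0.37 to 0.92, limma adjusted p = 0.0141). These 4 genes were the fatty acid branch members that rose, and their 12 values are all beyond the software's limits. The other 4 members of the branch lay between -0.11 and 0.25 on every A549 array, with the 2 opposed probes of *ACACA* averaged. *FASN*, the fatty acid synthase, was at -0.06, 0.00 and 0.08. *ACACA*, the acetyl-CoA carboxylase that makes malonyl-CoA, was at -0.08, -0.11 and -0.02. Both act on the way from acetyl-CoA to palmitate. *ACLY*, which makes acetyl-CoA from citrate, was at -0.04, 0.14 and 0.03. *ELOVL6*, which lengthens palmitate, was at 0.25, 0.00 and -0.10. Thus *SCD*, *FADS1*, *FADS2* and *ACSS2* were higher on every A549 array than any of these 4.

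In the sterol branch, *LSS*, which closes the ring of lanosterol, was at 0.90, 0.68 and 0.88, with a mean of 0.82 (0.45 to 1.19, limma adjusted p = 0.0162), or 1.76-fold. Its 2 probes differed in size on the A549 arrays, with 1.42, 0.96 and 1.30 for the one and 0.37, 0.40 and 0.45 for the other, so that the direction was shared but the size was not. With the brighter probe alone, the mean was 0.41 and the limma adjusted p 0.100. *MVD*, the decarboxylase that ends the mevalonate steps, was at 0.33, 0.50 and 0.57, with a mean of 0.46 (0.26 to 0.67, limma adjusted p = 0.0149). *FDFT1*, the squalene synthase, was at 0.37, 0.38 and 0.46, with a mean of 0.40 (0.19 to 0.62, limma adjusted p = 0.0273). These smaller changes were 1.38-fold and 1.32-fold. Against the mean of the other 5 arrays, a contrast added after the data were seen that also takes off a dye effect common to all arrays, *SCD* was at 1.30 (limma adjusted p = 0.0147), *FADS2* at 0.73 (0.0293) and *ACSS2* at 0.64 (0.0392). The other 4 did not pass in it, with *FADS1* at 0.73 (0.0688), *LSS* at 0.72 (0.0702), *MVD* at 0.28 (0.171) and *FDFT1* at 0.20 (0.335). Higher in this contrast were 3 of 29 members and 0 were lower, where 3.05% and 3.33% of all genes were.

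The remaining 15 sterol branch members did not pass the test in the *LOXL2* group. *DHCR7*, the last reductase on the way to cholesterol, was at 0.43, 0.45 and 0.55, each beyond the software's limits, with a mean of 0.47 (-0.06 to 1.01, limma adjusted p = 0.208). The fit uses 1 spread for all groups, and *DHCR7* was spread from -0.77 to 0.65 over the siDONSON arrays. *HMGCS1*, which makes the HMG-CoA for mevalonate, was the lowest of the branch at -0.34, -0.21 and -0.19. *IDI1*, *FDPS*, *NSDHL* and *ACAT2*, which act on isoprenoids, on sterols and on acetoacetyl-CoA, lay between 0.11 and 0.35 on all 3 arrays, all above 0. *SQLE*, the squalene epoxidase, and *CYP51A1*, the lanosterol demethylase, lay between -0.09 and 0.03. Of the regulators, *INSIG1* had a mean of 0.63 (limma adjusted p = 0.0663) and *STARD4*, a sterol carrier, of 0.54 (0.0520). The other 7 sterol enzymes were *MVK*, *PMVK*, *MSMO1*, *HSD17B7*, *EBP* and *TM7SF2*, which lay between -0.18 and 0.57, and the dim *SC5D* at -0.32, 0.34 and 0.47. Neither SREBP gene passed the test. *SREBF1* was at 0.18, 0.11 and 0.16 and *SREBF2* at 0.02, 0.04 and 0.19.

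Seen array by array, 7 of 30 members were above 0 and beyond the software's limits on all 3 *LOXL2* arrays and 0 were below, where 6.64% and 7.34% of all genes were. These were *LSS*, *DHCR7*, *INSIG1*, *SCD*, *FADS1*, *FADS2* and *ACSS2*. Leaving out any 1 of the 3 arrays left 1 member past the threshold, *ACSS2*, with limma adjusted p values of up to 0.118 for *FADS1*, 0.0969 for *FADS2* and 0.0913 for *SCD*. Over all genes, the count fell from 2229 to between 470 and 588 when an array was left out.

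**Figure D3:**
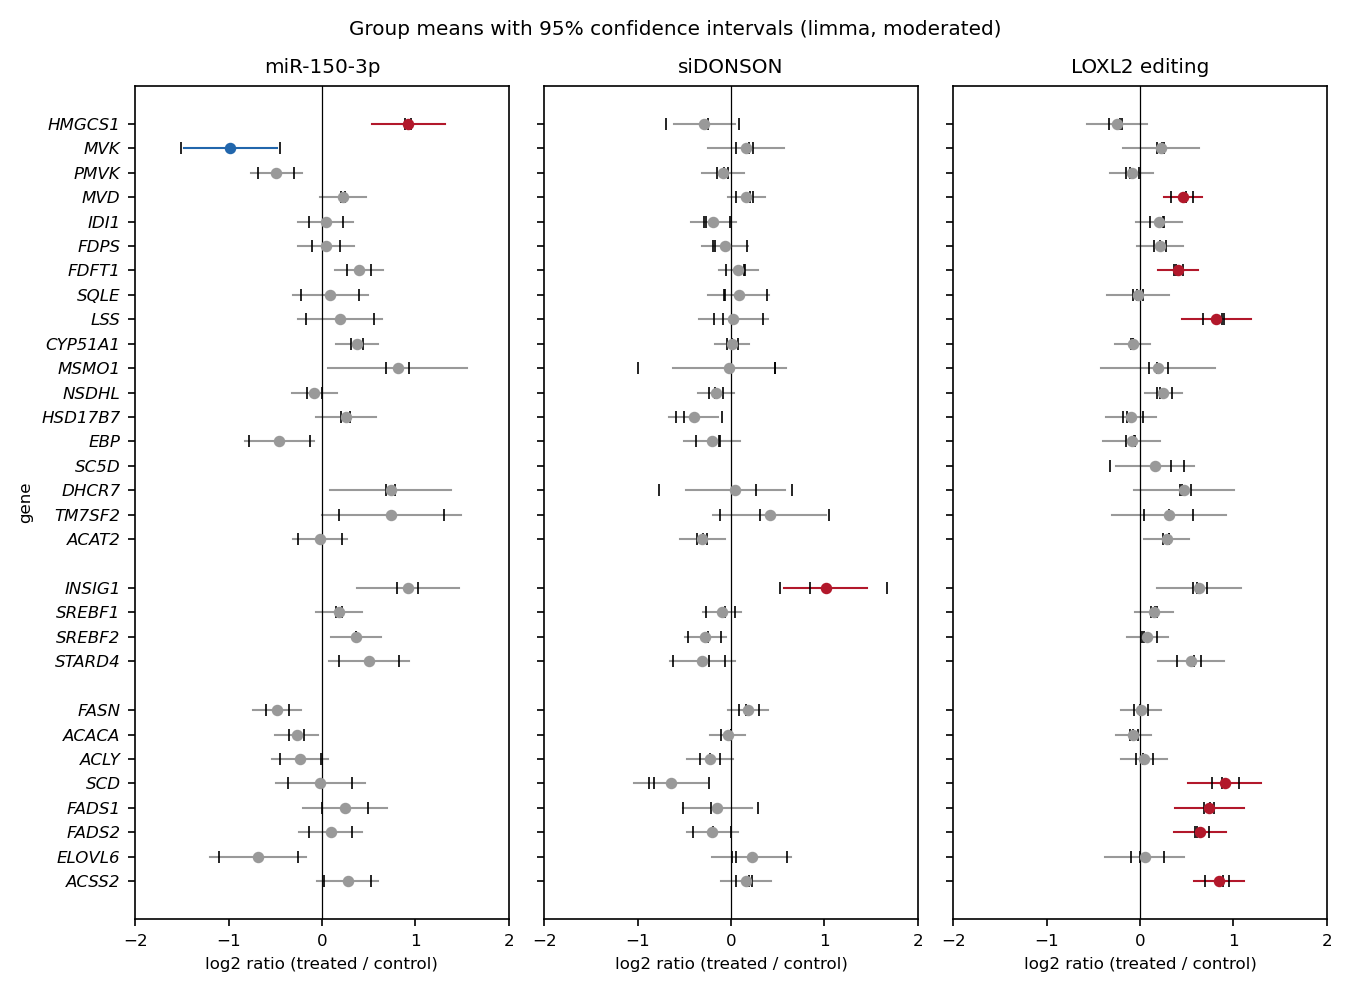
Mean log2 ratio per gene and group (dots) with the 95% confidence interval of the limma fit (lines) and the single arrays (short vertical marks). Red and blue mark members higher and lower at an adjusted p under 0.05, which are 7 in the *LOXL2* group, 2 in the *miR-150-3p* group and 1 in the siDONSON group.

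In the LUSQ lines transfected with *miR-150-3p*, 1 of 29 members was higher and 1 lower, where 2.47% and 2.90% of all genes were. These counts are near those shares. Both genes act in the mevalonate steps. *HMGCS1* was at 0.89 (EBC-1) and 0.96 (SK-MES-1), with a mean of 0.93 (95% confidence interval 0.53 to 1.32, n = 2, limma adjusted p = 0.0325), a 1.90-fold higher level. *MVK*, the mevalonate kinase 2 steps later, was at -1.51 and -0.45, with a mean of -0.98 (-1.48 to -0.49, limma adjusted p = 0.0445), a level 0.507 times that of the controls. The *HMGCS1* values of the lines differ by less than the software's error, and the *MVK* values by more than 1 on the log2 scale. Both calls were lost without the EBC-1 array, where *HMGCS1* had a limma adjusted p of 0.224 and *MVK* was at -0.45 (0.249). Without the SK-MES-1 array, *HMGCS1* just missed the threshold (0.0512). With dim probes kept, both missed it (0.0541 each), and with background correction and loess computed anew the *HMGCS1* mean was 0.61 (limma adjusted p = 0.00979). Against the mean of the other 6 arrays, *HMGCS1* was at 1.19 (limma adjusted p = 0.0294) and *MVK* at -1.18 (0.0553), so that 1 of 29 members was higher and 0 lower, where 0.536% and 1.20% of all genes were. With the spread estimated from these 2 arrays alone, limma called 0 of 29 members and 0 of 14230 genes, with 5 members and 1943 genes at an unadjusted p under 0.05.

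The next enzyme, *PMVK*, was at -0.68 and -0.29, and its mean of -0.49 had a limma adjusted p of 0.0552. *EBP*, a sterol isomerase, was at -0.79 and -0.12. Both were lower in EBC-1 than in the other line. The sterol enzymes *MSMO1* at 0.69 and 0.93, *DHCR7* at 0.69 and 0.79 and *CYP51A1* at 0.44 and 0.31 were above 0 in both lines but did not pass (limma adjusted p 0.141, 0.131 and 0.0609). The spread used is shared by all groups. On the siDONSON arrays *MSMO1* was spread from -0.99 to 0.48 and *DHCR7* from -0.77 to 0.65. *TM7SF2*, a sterol reductase, was at 1.31 and 0.18. The squalene and lanosterol synthases did not pass, with *FDFT1* at 0.27 and 0.53 and *LSS* at 0.56 and -0.17. *MVD* and *HSD17B7* lay between 0.20 and 0.30 in both lines, and *IDI1*, *FDPS*, *SQLE*, *NSDHL* and *ACAT2* between -0.26 and 0.40. Among the regulators, *SREBF2* was at 0.37 and 0.36, *SREBF1* at 0.22 and 0.15 and *STARD4* at 0.83 and 0.18, all above 0. Of the 17 sterol branch members tested, 5 had a mean below 0, where 46.1% of all genes did.

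In the fatty acid branch 7 of 8 members were below 0 on the EBC-1 array, *FADS1* among them at -0.0027, and 4 of 8 on the SK-MES-1 array, where 45.9% and 47.5% of all genes were. In this order of the lines, *ELOVL6* was at -1.11 and -0.26. *FASN* was at -0.60 and -0.35, with a mean of -0.48 and a limma adjusted p of 0.0501. *ACACA* was at -0.20 and -0.35 and *ACLY* at -0.45 and -0.01. *FASN*, *ACACA* and *ELOVL6* were thus below 0 in both lines, and none passed the test. For *ACACA* this is a mean over probes that differ. Its brighter probe was at -0.75 and -0.55 and its dimmer probe at 0.36 and -0.15. The desaturases took opposite signs in the lines, with *SCD* at -0.36 and 0.32 and *FADS2* at -0.14 and 0.32, each within the software's limits, and *FADS1* was at -0.0027 and 0.50. *ACSS2* was at 0.53 and 0.03.

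**Figure D4:**
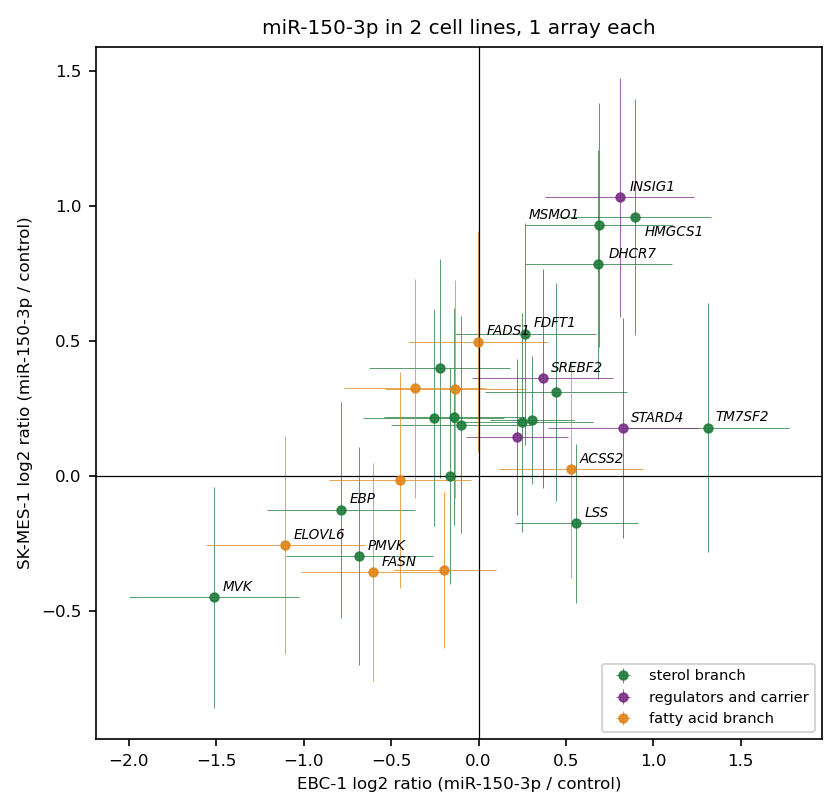
Log2 ratio of *miR-150-3p* over control in SK-MES-1 (vertical) against EBC-1 (horizontal) for 29 members, with lines for the 95% limits of the software's error. *HMGCS1*, *MSMO1*, *DHCR7* and *INSIG1* lie at the upper right and *MVK* at the lower left.

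On the single arrays, which have no replicate within a line, 2 of 29 members were below -1 in EBC-1 and 1 above 1, where 6.04% and 5.96% of all genes were. These are *MVK*, *ELOVL6* and *TM7SF2*. In SK-MES-1, 0 of 30 were below -1 and 1 was above 1, *INSIG1* at 1.03, where 1.27% and 2.57% of all genes were. Beyond the software's limits on both arrays, 4 of 29 members were above 0 (*HMGCS1*, *MSMO1*, *DHCR7* and *INSIG1*) and 1 below (*MVK*), where 5.31% and 5.55% of all genes were. Of the 29 members, 8 had opposite signs in the lines, and 0 of these were beyond the limits in both.

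In SBC-3 cells with *DONSON* knocked down, only *INSIG1* passed the test. *INSIG1*, which retains the SREBPs and is itself one of their targets, was at 0.84, 0.53 and 1.67 on siDONSON-1, siDONSON-2 and siDONSON-3. The mean was 1.01 (95% confidence interval 0.57 to 1.46, n = 3, limma adjusted p = 0.0261), or 2.02-fold. Without siDONSON-3 the mean was 0.69 (limma adjusted p = 0.0636), and without siDONSON-1 the call was lost as well (limma adjusted p = 0.0678).

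*INSIG1* was above 0 in the other groups as well, at 0.81 and 1.03 on the *miR-150-3p* arrays and at 0.72, 0.61 and 0.57 on the A549 arrays. It was the only 1 of 29 members above 0 and beyond the software's limits on all 8 arrays, where 0.148% of all genes were, and 0 members were below on all 8, where 0.0777% were. Against the mean of the other 5 arrays, *INSIG1* was at 0.27 in siDONSON (limma adjusted p = 0.523). None of the 3 differences between groups passed for *INSIG1* (limma adjusted p 0.428 to 0.872). As the treated RNA was red on every array, a dye effect of this probe and a rise under all treatments cannot be told apart.

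The other members of the siDONSON group did not pass against 0. Against the mean of the other 5 arrays, in which cell line and treatment cannot be told apart, 3 of 29 were lower and 0 higher, where 2.90% and 3.29% of all genes were. These were *SCD* at -1.18 (limma adjusted p = 0.0221), *STARD4* at -0.83 (0.0409) and *FADS2* at -0.62 (0.0489), of which *SCD* and *FADS2* are high on the A549 arrays that enter this mean. With these arrays subtracted, the sterol and fatty acid medians were -0.28 and -0.31. Set against its own controls, *SCD* was at -0.82, -0.24 and -0.88, below 0 with every siRNA, with a mean of -0.65 (limma adjusted p = 0.0601). *SREBF2* was at -0.11, -0.46 and -0.25, and *HSD17B7*, a sterol ketoreductase, at -0.59, -0.51 and -0.10. These were below 0 with every siRNA without passing the test. *DHCR7* had 0.65, 0.27 and -0.77, and *TM7SF2* -0.12, 1.05 and 0.31, so that the siRNAs differed in sign for these. *MSMO1* was at 0.47, -0.99 and 0.48, and was above background in the control channel on 1 of 3 arrays. Its level in these cells is thus close to the limit of detection. *FASN* was at 0.30, 0.16 and 0.09 and *ELOVL6* at 0.60, 0.05 and 0.02. *FADS1* was at -0.21, 0.29 and -0.51, and *HMGCS1* at 0.09, -0.25 and -0.69. The remaining members lay between -0.62 (*STARD4* with siDONSON-2) and 0.39 (*SQLE* with siDONSON-1). Above 0 and beyond the software's limits on all 3 arrays was 1 of 29 members, *INSIG1*, and 0 were below, where 1.93% and 2.51% of all genes were.

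Differences between the groups are free of a dye effect shared by all arrays, but the cell line and the treatment cannot be told apart in them. In *LOXL2* editing against siDONSON, 4 of 29 members were higher and 0 lower, where 3.51% and 3.79% of all genes were. The difference for *SCD* was 1.55 (1.01 to 2.10, limma adjusted p = 0.0122), or 2.93-fold, with all A549 values above and all SBC-3 values below 0. For *FADS2* it was 0.84 (0.46 to 1.23, limma adjusted p = 0.0265), for *ACSS2* 0.69 (0.32 to 1.06, 0.0436) and for *ACAT2*, a thiolase that makes acetoacetyl-CoA, 0.59 (0.26 to 0.93, 0.0482). *ACAT2* was at 0.25, 0.31 and 0.31 in A549 and at -0.25, -0.36 and -0.30 in SBC-3, and it passed against 0 in neither group. *FADS1* and *STARD4* just missed (limma adjusted p 0.0522 and 0.0514). Without any 1 of the *LOXL2* arrays, limma called 0 members in this comparison (8 or 9 at an unadjusted p under 0.05), and without siDONSON-1 or siDONSON-3 it called 1. With every array kept, 12 of 29 members and 25.4% of all genes had an unadjusted p under 0.05.

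*HMGCS1* separated the *miR-150-3p* group from both others. Its difference was 1.21 (0.71 to 1.71, limma adjusted p = 0.0367) against siDONSON and 1.17 (0.67 to 1.67, 0.0353) against *LOXL2* editing. It was the only member called in either comparison, with 1 of 29 higher and 0 lower in both. Of all genes, 1.13% were higher and 1.56% lower against siDONSON, and 1.73% and 1.87% against *LOXL2* editing. Neither call held without the EBC-1 array (limma adjusted p 0.155 and 0.121), nor did the second without any 1 of the *LOXL2* arrays. The call against siDONSON was also lost without siDONSON-2 (limma adjusted p = 0.0536). With background correction and loess computed anew from the scanner signals that difference was 0.71 (limma adjusted p = 0.0184), and with dim probes kept its adjusted p was 0.0860. *MVK* was lower by 1.14 and 1.21 on the log2 scale in these comparisons without passing (limma adjusted p 0.0700 and 0.0555). All 8 fatty acid branch members had a lower mean in the *miR-150-3p* group than in the *LOXL2* group, where 49.3% of all genes were lower. The differences were -0.93 to -0.20, with a median of -0.52. Of the 8, limma called 0, and 5 had an unadjusted p under 0.05. Of all genes, 22.0% had such a p in this comparison, and 11.4% had it and were lower.

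The wider pathway was read from 4 further lists of genes. Their counts stand beside 2.47% of all genes higher and 2.90% lower in the *miR-150-3p* group, 4.01% and 3.21% in the siDONSON group, and 7.58% and 6.77% in the *LOXL2* group. At an unadjusted p under 0.05 were 4266 of 14230, 3772 of 14454 and 4817 of 15531 genes in these groups. Among 6 genes that process or retain SREBP, limma called 0 in any group, with 0, 3 and 2 at an unadjusted p under 0.05 in the *LOXL2*, *miR-150-3p* and siDONSON groups. Among 21 genes that supply, elongate, desaturate or activate fatty acids, 1 of 21 passed in the *miR-150-3p* group, 1 of 19 in the siDONSON group and 0 of 21 in the *LOXL2* group, where 4 had an unadjusted p under 0.05. The gene higher with *miR-150-3p* was *FADS3*, a relative of *FADS1* and *FADS2*, at 0.96 and 0.68 (mean 0.82, limma adjusted p = 0.0300), and the one higher with siDONSON was *ELOVL1*, an elongase of very long chains (mean 0.43, 0.0279).

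Of 15 genes for sensing, uptake, storage and efflux of sterols, 2 were higher and 2 lower of 13 tested in the siDONSON group, where 4.01% and 3.21% of all genes were. *SOAT1*, which esterifies cholesterol for storage, was at 0.72, 0.84 and 0.79 (mean 0.78, limma adjusted p = 0.00762). *NPC2*, a lysosomal cholesterol carrier, was higher by a mean of 0.42 (0.0305), while *OSBP*, an oxysterol-binding protein, had a mean of -0.52 (0.0258) and *NR1H3*, the receptor LXR alpha, of -0.36 (0.0372). All 4 of these lie outside the synthesis steps. In the *LOXL2* group, 1 of 14 was higher and 1 lower, where 7.58% and 6.77% were. *NPC1*, which exports cholesterol from lysosomes, was at 0.79, 1.32 and 0.66 (mean 0.93, limma adjusted p = 0.0205), and *NCEH1*, a cholesteryl ester hydrolase, was at -0.50, -0.82 and -0.93 (mean -0.75, 0.0185). In the *miR-150-3p* group limma called 0 of 15, 8 of which had an unadjusted p under 0.05, where 4266 of all 14230 genes did, with a median of 0.48 against 0.04 for all genes. Of 6 further sterol genes, *ERG28*, a scaffold of sterol enzymes, was higher in the *LOXL2* group (mean 0.35, limma adjusted p = 0.0406) and in the *miR-150-3p* group (0.48, 0.0474). *RDH11*, a retinol dehydrogenase, was higher in the *miR-150-3p* group (0.51, 0.0465) and *GGPS1*, which makes geranylgeranyl diphosphate, in the siDONSON group (0.60, 0.0251).

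Levels in the control cells were compared within a gene, as the log2 green signal minus the 75th percentile of its array. Whether the control channels of a line hold the same RNA is not given, so their spread may be technical. It had a median SD of 0.042 in A549 and 0.057 in SBC-3 (n = 3 each). The highest level was in EBC-1 for 16 of the 30 members, in A549 for 8, in SK-MES-1 for 5 and in SBC-3 for 1, *SC5D*. EBC-1 and SK-MES-1 had 1 array each. The same count over all genes was not taken, so a shift of a whole array and a trait of these genes cannot be told apart. Some orders are close, as for *FADS1*, at 5.86 in EBC-1 and 5.83 in A549. The lowest was in SBC-3 for 18. *SC5D* was at or near background in all lines, so its order has no meaning.

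*FADS2* had the widest range, with 6.06 in A549, 4.76 in EBC-1, 1.85 in SK-MES-1 and 1.81 in SBC-3, where the last 2 differ by less than the SD in SBC-3. *HMGCS1* was at 2.36 in A549, 0.84 in SK-MES-1, 0.35 in EBC-1 and -0.30 in SBC-3. The LUSQ lines, in which it was higher after transfection, thus lay between SBC-3 and A549. *INSIG1* was at 2.50 in EBC-1, 2.21 in SK-MES-1, 1.70 in A549 and -0.36 in SBC-3. *ACSS2* was lowest in A549 at 0.44, the line in which it rose, and highest in EBC-1 at 2.96. *LSS* was lowest in A549 too, at -0.25, but *FADS1* and *FADS2* were at or next to their highest there. *FASN* was nearly level, from 4.45 in SBC-3 to 4.77 in A549.

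**Figure D5:**
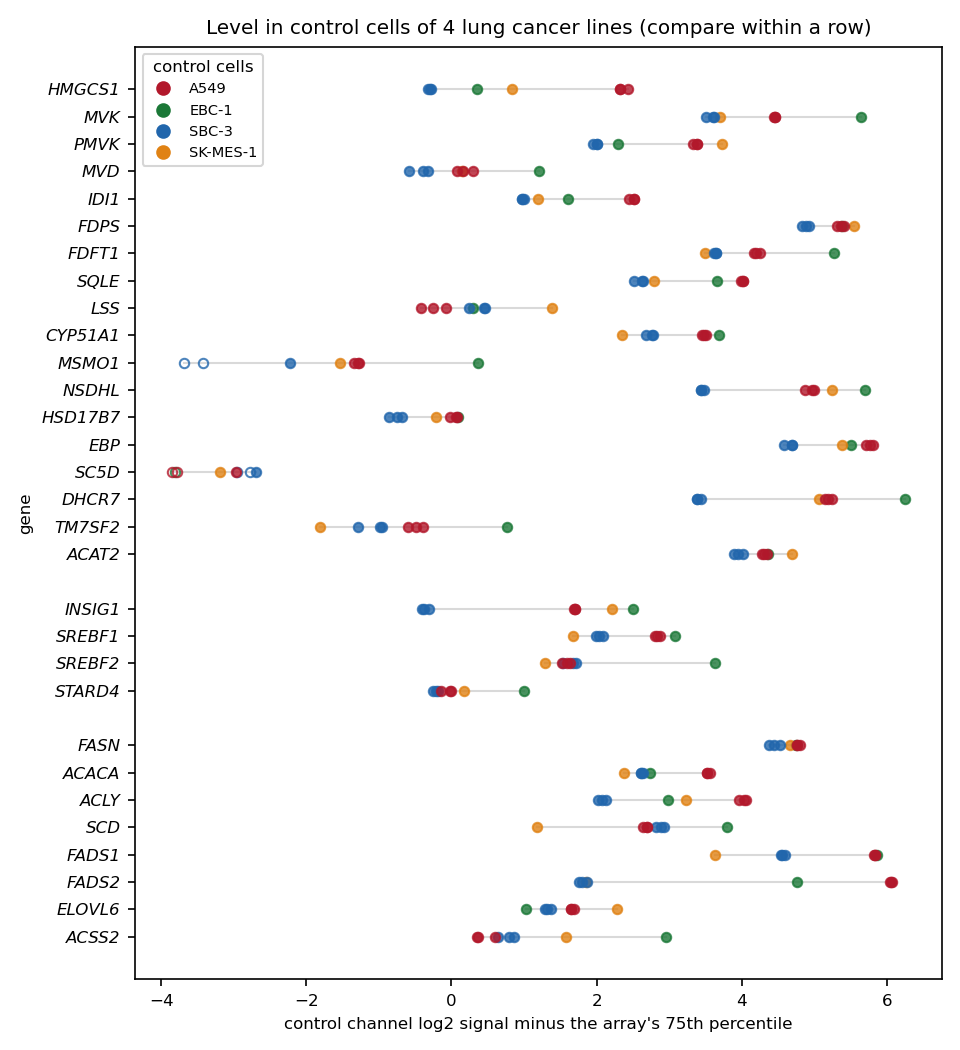
Level of each gene in the control channel of every array, as log2 signal minus the array's 75th percentile, coloured by cell line, with open circles where the gene was not well above background. Levels can be compared along a row and not between rows; *FADS2* spans 1.81 to 6.06 and SBC-3 is lowest for 18 members.

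Most members rest on 1 probe, which held for 26 of the 30, while 3 had 2 probes and *HSD17B7* had 3. The 2 probes of *ACACA* opposed each other on the A549 arrays, at -0.40, -0.40 and -0.34 for the one and 0.24, 0.18 and 0.30 for the other, so that its mean near 0 hides a difference between probes. In EBC-1 they were at 0.36 and -0.75, and in SK-MES-1 at -0.15 and -0.55, with the second probe the brighter in both lines. On siDONSON-1, siDONSON-2 and siDONSON-3 they were at -0.43 and 0.21, at 0.20 and -0.21, and at -0.08 and 0.09. The 2 probes of *LSS* had opposite signs in SK-MES-1, at -0.52 and 0.17. The same held on siDONSON-2, at 0.30 and -0.66, and on siDONSON-3, at 0.14 and -0.31.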

How the data were processed

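RNA of treated cells (Cy5, red) and control cells (Cy3, green) was hybridized on 8 Agilent arrays of 1 slide with 1 scan time, so no slide block could be fitted. The authors deposited the output of Agilent Feature Extraction 12.1.1.1, with processed intensities of both channels that the software had background-subtracted and dye-normalized, their error, and outlier and background flags. A series-wide deposited table gives log10 ratios of red over green identical to those of the arrays (largest difference 0). The software's p-values were not used. The array design names hg19, and RefSeq tables (GRCh38.p14) gave only names and promoter sequences.

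Log2 ratios were computed from the deposited intensities of non-control, non-outlier spots (81 to 133 of 60901 were outliers, 0 saturated). Of 49793 accessions, 24782 matched a gene symbol. Probes well above background in at least 1 channel were averaged per gene. In limma 3.58.1 (R 4.3.3), a mean per group was fitted to all 8 arrays with 5 residual degrees of freedom, and means and differences between groups were tested two-sided, with Benjamini-Hochberg adjustment over the genes with a value on every array used. The number of arrays limits the precision. The fit was tested on simulated data.

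The members, lists and tests were chosen with earlier results of these data known. Named were all members, and of the other lists the genes past the threshold, up to 6 per group. Alternatives were normexp with loess (on median pixel signals, since mean signals are not used here), other filters on dim and outlier spots, the brightest probe, median centring, the series table, subtraction of the other groups' arrays, that difference as a contrast (added after seeing the data), the spread of a group's own arrays, and leaving out each array.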

Additional observations from a re-analysis of the deposited data

How the results depend on the processing

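The deposited series table and keeping outlier spots changed no call of a member. The counts of members called were 2 (*miR-150-3p*), 1 (siDONSON), 7 (*LOXL2*), 4 (*LOXL2* against siDONSON), 1 (*miR-150-3p* against siDONSON) and 1 (*miR-150-3p* against *LOXL2*). With normexp and loess they were 10, 1, 10, 8, 6 and 6, and with both channels above background 7, 1, 9, 6, 3 and 2. Without a filter on dim probes they were 0, 1, 8, 2, 0 and 0 (14, 9 and 10 at an unadjusted p under 0.05 where 0), and with the brightest probe 4, 1, 6, 4, 2 and 2. With the groups' own spread they were 0, 0, 15, 7, 0 and 1, and with the other arrays subtracted 4, 12 and 8 in the groups. Calls over all genes, given in the next paragraph, rose as well for *LOXL2* with its own spread and for *miR-150-3p* with normexp and loess. For the differences between groups and for some settings, calls over all genes are not given. A rise in members and a general rise in calls cannot be told apart there. Calls over all genes also rose for siDONSON with the other arrays subtracted, so these member counts alone do not describe the members. That subtraction leaves the error of the subtracted mean out of the test, and the contrast with the other arrays, which includes it and was chosen after seeing the data, gave 1, 3 and 3. Leaving out an array gave 0 to 8, 0 to 3, 1 in every case, 0 to 3, 0 to 6 and 0 to 9. *ACSS2* stayed past the threshold in the *LOXL2* group under all 13 alternatives.

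Over all genes, 765 were called with *miR-150-3p*, 1537 with normexp and loess, 198 without the dim filter, 0 with its own spread, 224 as a contrast with the other arrays and 1 to 2823 without an array. For siDONSON, 1044 became 2897 without the dim filter, 2788 with the other arrays subtracted, 26 with its own spread and 97 to 1115 without an array. For *LOXL2*, 2229 became 5375 without the dim filter, 5873 with its own spread, 821 as a contrast with the other arrays and 470 to 588 without an array. The causes were not tested.

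The sterol median with *miR-150-3p* (0.19) was 0.11 with normexp and loess, 0.14 without the dim filter, 0.16 with median centring, 0.033 with the other arrays subtracted and 0.20 to 0.25 without an array. Its fatty acid median (-0.13) was 0.01 without EBC-1 and -0.28 without SK-MES-1. For siDONSON, the sterol median (-0.017) was -0.065 with the brightest probe, -0.056 with median centring, -0.28 with the other arrays subtracted and -0.127 to -0.017 without an array, and the fatty acid median (-0.09) was -0.31 with the other arrays subtracted and -0.11 to -0.01 without an array. For *LOXL2*, the sterol median (0.21) was 0.17 with normexp and loess and 0.19 to 0.23 without an array, and the fatty acid median (0.35) was 0.44 with the brightest probe, 0.45 with the other arrays subtracted and 0.36 to 0.38 without an array.

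No paired analysis was possible because the replicate numbers of the siDONSON and *LOXL2* groups mark siRNAs and edited cells of different cell lines. Dim members, such as *SC5D*, were limited by signal over background.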
